A study of Mus musculus with 2 samples.

Results

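The miRNA genes known from microglia, white blood cells and red blood cells were described in small-RNA libraries of the left cerebral cortex. They were chosen by gene name, 9 of the 2202 miRNA genes counted: the white-cell genes Mir150, Mir146, Mir146b, Mir142, Mir155 and Mir223, and the red-cell genes Mir451a, Mir144 and Mir486. The tissue came from 2 male B6CASTF1/J mice, an F1 hybrid strain made from C57BL/6J and CAST/EiJ, each aged 25 days and numbered as its own animal in the labels. Each mouse gave 1 library, no treatment is named, and both libraries form 1 group, so no condition was compared. Levels are own-strand read counts, that is reads on the strand of the gene, and counts per 1000000 of them (CPM), with the mean ± SD of n = 2 libraries.

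MicroRNAs are short RNAs cut from hairpins that guide Argonaute proteins to partly matching mRNAs and lower their output. The seed, bases 2 to 8 of the mature miRNA, does most of the target recognition. Mir142 and Mir223 are blood-lineage miRNAs, Mir150 is a miRNA of mature lymphocytes, and Mir146 and Mir155 are induced by inflammatory signalling through NF-kappaB and related pathways. Mir451a and Mir144 lie in 1 erythroid primary transcript, and Mir486 is made in erythroid and muscle cells. In the brain the first set is read as a sign of microglia and of white cells in vessels, and the second as a sign of red cells in blood. In bulk tissue, fewer cells of a type and less miRNA per cell cannot be told apart.

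The mature sequences below are shown because the seed decides which mRNAs a miRNA can reach, and because near-identical sequences decide whether a read can be given to 1 gene. They come from RefSeq on GRCm38.p6, in which 8 of the 9 genes had a mature entry. They are written 5′ to 3′ with the seed in capitals.
miR-150-3p: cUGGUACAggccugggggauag
miR-146a-5p: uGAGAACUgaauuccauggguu
miR-146b-5p: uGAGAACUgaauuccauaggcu
miR-142a-5p: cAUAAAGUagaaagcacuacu
miR-142a-3p: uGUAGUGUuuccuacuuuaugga
miR-155-5p: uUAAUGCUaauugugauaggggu
miR-223-3p: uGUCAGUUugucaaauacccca
miR-451a: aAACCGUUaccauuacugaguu
miR-144-3p: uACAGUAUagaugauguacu
Mir486 is named only. The shared seed GAGAACU belonged to miR-146a-5p and miR-146b-5p and to no other of the 1738 mature entries of the table. Each of the other printed seeds belonged to 1 entry. These 2 miRNAs differ by the substitutions G18A and U21C, counted from the 5′ end of miR-146a-5p, so they are alike over 17 bases before the first difference. miR-451a shared a stretch of 16 bases with the hairpin of Mir451b on the other strand of its locus. The 14 mature entries of the 8 genes, of which miR-150-3p is the one for Mir150, were searched in the 1005 hairpins of the table. None occurred in more than 1 hairpin, and miR-150-3p occurred in 0 of them. The other arm of Mir150 and the genome outside these hairpins were not searched. These entries were 20 to 23 bases long, so counts are compared between genes with no scaling by length. The files count whole genes, so the arms of a hairpin cannot be told apart.

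Replicate 1 held 2388379 own-strand counts and replicate 2 held 4447390. The floor of 3 counts was 1.26 and 0.675 CPM. Reads that match several places were 48.6% and 52.8% of mapped reads and were given to no gene. All 9 genes had at least 10 counts in each library, as did 392 genes in all, which are called measured. The 9 genes together took 0.245% of replicate 1 (exact Clopper-Pearson bounds at 95%, 0.238 and 0.251%) and 0.264% of replicate 2 (0.259 and 0.269%). Reads carried no molecular identifiers and can repeat a molecule, so floors and bounds speak of counting error alone.

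Mir150 and Mir146 supplied nearly all counts of the white-cell list, while the genes most confined to blood cells, Mir142 and Mir223, were much lower. The sum of this list is therefore mostly the level of Mir150 and Mir146. Which cells made these miRNAs was not tested. Mir150 (ENSMUSG00000065495.1; mm10 chromosome 7, 45121757 to 45121821, plus strand, in no annotated host gene) restrains the transcription factor Myb in lymphocytes. It had 3244 counts (1358 CPM) in replicate 1 and 6655 (1496 CPM) in replicate 2, a mean of 1427 ± 97.7 CPM. It ranked 92nd of all genes by mean level and gave 59.4% ± 0.847 of the white-cell counts. Mir146 (ENSMUSG00000065601.1; chromosome 11, 43374397 to 43374461, minus strand, in no annotated host gene) gives miR-146a, which dampens the signalling proteins Traf6 and Irak1. It had 1894 counts (793 CPM) and 3801 counts (855 CPM), a mean of 824 ± 43.6 CPM and rank 114. The ratio of Mir150 to Mir146 was nearly the same in the libraries, at 1.71 in replicate 1 and 1.75 in replicate 2.

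**Figure D1:**
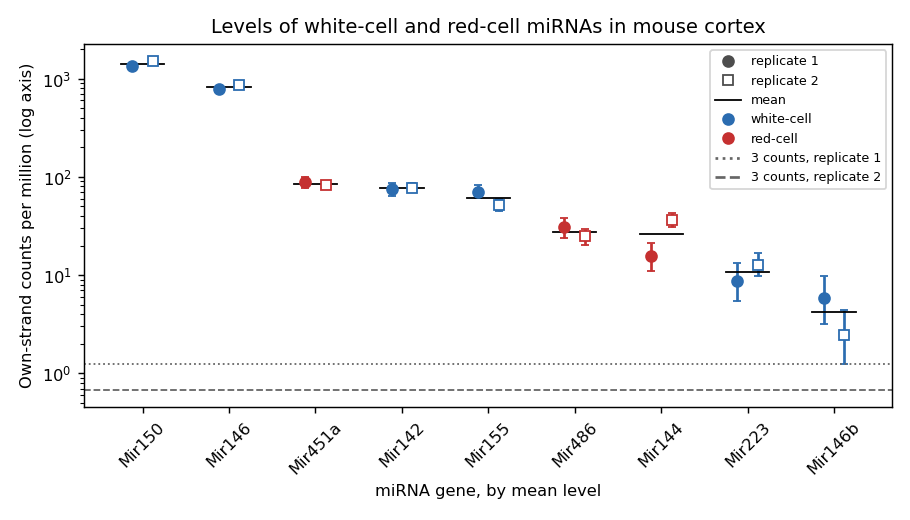
Level of each gene in CPM on the own strand (vertical log axis), ordered by mean; filled circles are replicate 1, open squares replicate 2, bars 95% exact intervals for counting error, black lines the mean, and grey lines the level of 3 counts in each library. Mir150 and Mir146 stand at 793 CPM or more in both libraries, and the other 7 members lie at 87.9 CPM or less.

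The remaining white-cell genes stood near or below 80 CPM. Mir142 (ENSMUSG00000105196.1; chromosome 11, 87756864 to 87756927, plus strand), expressed across blood lineages, lies in an intron of the non-coding RNA gene Mir142hg. It had 179 counts (74.9 CPM) and 345 counts (77.6 CPM), a mean of 76.3 ± 1.86 CPM, the smallest relative spread of the 9 genes at 2.44% of the mean. Mir155 (ENSMUSG00000065397.1; chromosome 16, 84714140 to 84714204, plus strand), which rises in activated macrophages and lymphocytes, lies in an exon of Mir155hg. It had 169 counts (70.8 CPM) and 231 counts (51.9 CPM), a mean of 61.3 ± 13.3 CPM.

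Mir223 and Mir146b were close to the lower end of the measured range. Mir223 (ENSMUSG00000076066.1; chromosome X, 96242817 to 96242926, plus strand), the miRNA of neutrophils and monocytes, lies in an exon of F630028O10Rik, a non-coding RNA gene. It had 21 counts (8.79 CPM) and 57 counts (12.8 CPM), a mean of 10.8 ± 2.85 CPM. Mir146b (ENSMUSG00000070127.2; chromosome 19, 46342762 to 46342870, plus strand, in an intron of Mfsd13a) shares its seed with Mir146. It had 14 counts (5.86 CPM) and 11 counts (2.47 CPM), a mean of 4.17 ± 2.40 CPM. Of the 2 genes with the shared seed, the level of Mir146 was thus 135 times that of Mir146b in replicate 1 and 346 times in replicate 2, where the lower value rests on 11 counts. A read of either miRNA that ends before base 18 matches both genes and would have been given to neither, so the level of the scarcer gene is uncertain.

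The red-cell genes were led by Mir451a, and the list summed to 139 ± 7.18 CPM. Mir451a (ENSMUSG00000070065.1; chromosome 11, 78073170 to 78073241, plus strand), which is matured by Ago2 without Dicer and is abundant in red cells, had 210 counts (87.9 CPM) and 369 counts (83.0 CPM), a mean of 85.4 ± 3.50 CPM. It gave 61.6% ± 5.70 of the red-cell counts. Mir486 (ENSMUSG00000070084.3; chromosome 8, 23142555 to 23142682, plus strand) lies in an intron of Ank1, the gene of the ankyrin of the red-cell membrane. It had 73 counts (30.6 CPM) and 110 counts (24.7 CPM), a mean of 27.6 ± 4.12 CPM. The mature miRNAs of Mir486 and of Mir3107, which lies on the other strand of the same locus and is also named mir-486b in RefSeq, are known to be alike, so its count is uncertain.

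Mir144 (ENSMUSG00000065401.1; chromosome 11, 78073005 to 78073070, plus strand), whose transcription is driven by the erythroid factor GATA1, lies 99 bases from Mir451a. It had 37 counts (15.5 CPM) and 162 counts (36.4 CPM), a mean of 26.0 ± 14.8 CPM. The Mir144 level was thus higher in replicate 2. The Mir451a levels lay within counting error of each other, at a fold of 0.944 for replicate 2 over replicate 1 (interval 0.794 to 1.12). A change of the 2 genes in opposite directions is therefore not shown. Mir451a counts were 5.68 times those of Mir144 in replicate 1 and 2.28 times in replicate 2. The ratio differed between the libraries in Fisher's exact test on the 4 counts (two-sided p = 2.52e-06; adjusted p = 1.01e-05 by Benjamini-Hochberg over 4 such ratios between members). Of the other 3 ratios, Mir146 over Mir146b (adjusted p = 0.0263 in Fisher's exact test) and Mir142 over Mir155 (1.06 and 1.49, adjusted p = 0.0263) also differed, and Mir150 over Mir146 did not pass (adjusted p = 0.536). These pairs were picked with their values known, and the test covers counting error between these libraries only. Other pairs of genes were not tested. Of all measured genes taken singly, 56.9% differed between the libraries in an exact binomial test. That is a share of single genes and not of pairs. Whether a differing ratio is particular to these members was therefore not tested.

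The order of the counts was set apart only at the top and in the middle. Reads of different genes can be ligated unequally, so this is an order of counts. Neighbours were set apart where their counts differed in both libraries in the same direction by an exact binomial test (two-sided, adjusted over 16 tests) and their mean ± SD ranges did not overlap. By this rule Mir150 was above Mir146, Mir146 above Mir451a, and Mir155 above Mir486, whose count is uncertain because of Mir3107. Mir451a was not set apart from Mir142, since neither library passed, nor Mir142 from Mir155, where only replicate 2 passed. Mir486 and Mir144 changed places, with Mir486 higher in replicate 1 and Mir144 higher in replicate 2. Mir144 and Mir223, and Mir223 and Mir146b, were not set apart either, because the tests on the low counts of replicate 1 did not pass. The mean ± SD ranges of Mir144 and Mir223, and of Mir142 and Mir155, also overlapped.

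**Figure D2:**
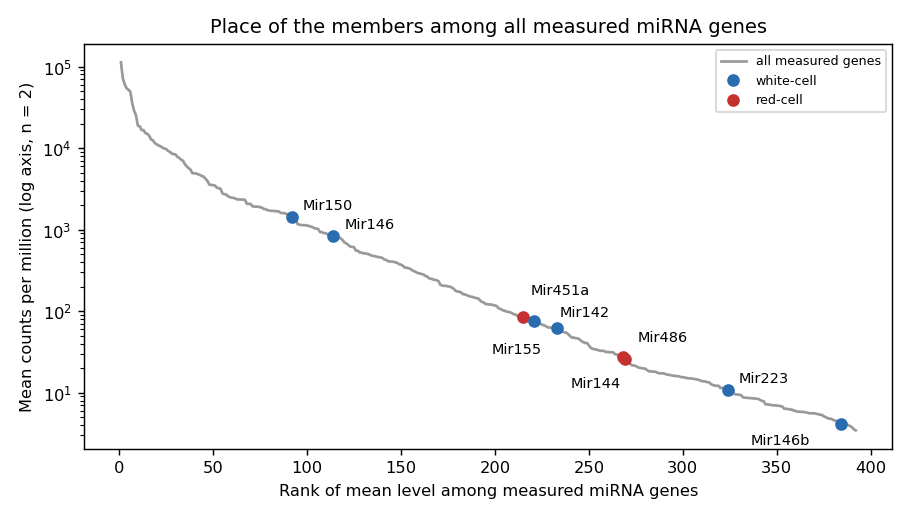
Mean level of the 392 measured miRNA genes (grey line, vertical log axis, CPM, n = 2 libraries) against their rank, with white-cell genes in blue and red-cell genes in red. Mir150 has 91 measured genes above it, Mir142 has 220 and Mir146b has 383, so the members run from the upper part of the profile to its end.

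Among the measured genes, 76.5% had a lower mean level than Mir150 and 70.9% a lower one than Mir146. The corresponding share was 45.2% for Mir451a, 43.6% for Mir142, 40.6% for Mir155, 31.6% for Mir486 and 31.1% for Mir144. Only 17.3% lay below Mir223 and 2.04% below Mir146b. The median level of the 9 genes was 61.3 CPM, against 121 CPM over all measured genes.

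The counts of 3 members, Mir142, Mir451a and Mir486, exist only where strand is kept. At Mir150, Mir146, Mir146b, Mir155, Mir223 and Mir144 no miRNA gene is annotated on the other strand, and counts of the strands together equalled own-strand counts. Mir142 shares its locus with Mir142b, and Mir451a with Mir451b. At both loci all reads lay on the strand of Mir142 and Mir451a, none on that of Mir142b and Mir451b, and counting without strand left 0 reads for any of the 4 genes. At the Mir486 locus 6 reads in replicate 1 and 4 in replicate 2 lay on the strand of Mir3107, against 73 and 110 on that of Mir486. Without strand the Mir486 count was again 0. The red-cell sum then fell from 139 to 28.2 CPM, all of it Mir144, whereas the white-cell sum was 2524 CPM against 2404 CPM. This rise comes from the smaller total of the counts without strand, since the white-cell counts themselves fell by those of Mir142.

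**Figure D3:**
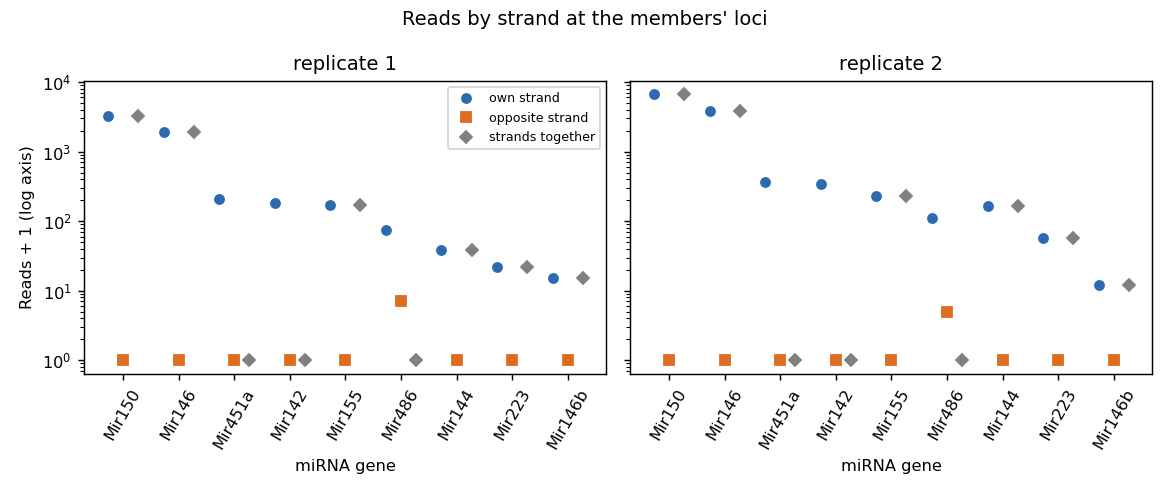
Reads on the own strand (blue circles), on the opposite strand (orange squares) and counted without strand (grey diamonds) for each member in replicate 1 (left) and replicate 2 (right); the vertical log axis shows reads plus 1, so a value of 0 sits at 1. The grey diamonds of Mir451a, Mir142 and Mir486 lie at the bottom, and only Mir486 has reads on the opposite strand, 6 and 4.

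Between the mice, the ratio of each sum was near 1. The white-cell sum was 2312 CPM in replicate 1 and 2496 CPM in replicate 2, a ratio of 1.08 (95% exact binomial interval 1.05 to 1.12). With TMM scaling, which rests on the bulk of the genes, the ratio was 1.03 (1.00 to 1.07), and without Mir150 it was 1.05 (0.996 to 1.10). The red-cell sum was 134 and 144 CPM, a ratio of 1.08 (0.939 to 1.23), and without Mir144 it was 0.909 (0.783 to 1.06). Neither interval for the red-cell sum excludes equality. Within a library, red-cell counts stood at 0.0580 of white-cell counts in replicate 1 and 0.0577 in replicate 2. Without Mir144 the ratio was 0.0513 in replicate 1 and 0.0432 in replicate 2, so the closeness of the full ratios rests on that gene.

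**Figure D4:**
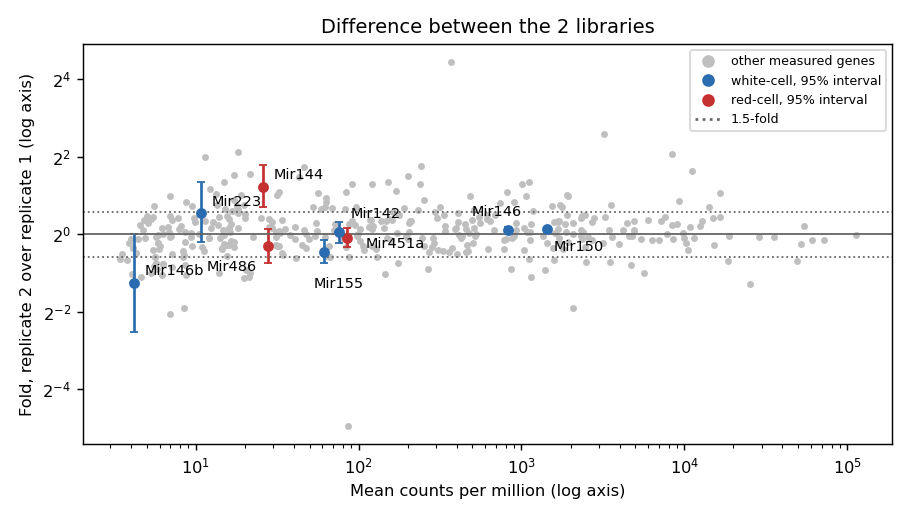
Fold of replicate 2 over replicate 1 (vertical log axis) against mean CPM (horizontal log axis) for the 392 measured genes in grey, with white-cell members in blue, red-cell members in red and 95% exact binomial intervals as bars; dotted lines mark 1.5-fold. Mir144 lies above the upper line at 2.35 and Mir146b below the lower line with an interval that reaches 1.00, while the other 7 members lie between the lines.

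Each measured gene was tested by an exact conditional binomial test given the library totals (two-sided, Benjamini-Hochberg adjusted over all 392 genes), which covers counting error and compares these libraries, not conditions. Of the 9 members 4 passed an adjusted p of 0.05, where 56.9% of all measured genes did. The members' share is thus not above the background. Higher in replicate 2 were 3 of them, where 34.2% of measured genes were, and 1 was lower, where 22.7% were. Mir144 was 2.35-fold higher (interval 1.64 to 3.46, adjusted p = 1.32e-06 in the exact test). Mir150 was 1.10-fold higher (1.06 to 1.15, adjusted p = 1.37e-05, exact test), and Mir146 was 1.08-fold higher (1.02 to 1.14, adjusted p = 0.0144, exact test). Mir146 no longer passed with TMM scaling (adjusted p = 0.361, exact test) or DESeq2 scaling (0.371). Mir155 was lower, at 0.734 of its level in replicate 1 (0.599 to 0.901, adjusted p = 0.00542, exact test).

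The other 5 members did not pass. Their folds were 1.04 for Mir142 (0.862 to 1.25), 0.944 for Mir451a (0.794 to 1.12), 0.809 for Mir486 (0.597 to 1.10), 1.46 for Mir223 (0.870 to 2.53) and 0.422 for Mir146b (0.173 to 1.00). The direction for Mir142 turned with TMM and DESeq2 scaling. The intervals of Mir223 and Mir146b were the widest of the 9 genes. Past 1.5-fold, with no test, were 2 members, where 27.6% of measured genes were. Upward this was Mir144 (17.3% of measured genes) and downward Mir146b (10.2% of measured genes). With edgeR's exact test, which adds a dispersion estimated over all measured genes (coefficient of variation 0.310), 0 members passed and 0 had an unadjusted p under 0.05. Of all measured genes 3 passed it, or 0.765%, and 20 (5.1%) had an unadjusted p under 0.05. Its dispersion comes from the pair being compared, so no replicate stands behind it.

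The size of each fold was set beside genes of like level, those with a mean CPM within 2-fold of the member. Of 74 genes of like level to Mir144, 6 had a larger fold in either direction, and the median size of their folds was 1.29. Of 51 genes of like level to Mir146b, 1 had a larger fold. Of 68 genes near Mir155, 23 had a larger fold, and of 64 genes near Mir150, 45 had. For Mir142 the figure was 57 of 62 and for Mir451a 57 of 64, so their folds were among the smaller of their level. Both folds lie within counting error (intervals 0.862 to 1.25 and 0.794 to 1.12), so they cannot show that these genes are steadier. Of the 64 genes near Mir150, 87.5% passed the binomial test, and of the 51 near Mir146b 3.92%, which shows how far a call in this test follows the number of counts. The median size of fold over the 9 members was 1.24, against 1.27 over all measured genes.

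For each member the gene of most like level was taken, as the smallest distance of log2(CPM + 1) over the 2 libraries among genes with no numbered copies. The nearest to Mir150 was Mir338, the oligodendrocyte miRNA (1373 and 1341 CPM). Mir146 was nearest to Mir673, Mir451a to Mir6944, Mir142 to Mir1188, Mir155 to Mir203, Mir486 to Mir494, Mir223 to Mir34b and Mir146b to Mir6940. Mir1264 had exactly the counts of Mir144, 37 and 162. A likeness over 2 libraries of 1 group is a likeness of level only.

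Other cell types were read beside the members through their miRNAs, as levels of lists and not as cell counts. The white-cell sum, 2404 ± 130 CPM, was near that of the oligodendrocyte list (3141 ± 587 CPM, mostly Mir219a-2 at 1778 ± 612 and Mir338 at 1357 ± 22.5 CPM; Mir219a-1 was at 6.34 ± 2.29 CPM and Mir219b had 0 counts). The oligodendrocyte sum was 1.18 times the white-cell sum in replicate 1 and 1.42 times in replicate 2. The list of endothelium and vessel wall was 7.25 and 11.2 times the white-cell sum. It summed to 22382 ± 7958 CPM, from Mir126a (16643 ± 8288 CPM), Mir143 (5449 ± 299 CPM) and Mir145a (290.1 ± 31.5 CPM), with Mir126b and Mir145b at 0 counts. The neuron list, led by Mir132, Mir128-1, Mir137 and Mir138-1, was 38.5 and 30.5 times the white-cell sum. The oligodendrocyte and neuron lists hold numbered copies of some genes. Reads of such copies that match several places were given to no gene. The sums of these lists, and their ratios to the white-cell sum, can therefore be too low.

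Whether blood was flushed from the tissue before it was taken is not given in the sources used here. Against the red-cell sum, the vessel list was 125 times as high in replicate 1 and 194 times in replicate 2. Within the vessel list Mir126a was 2.09-fold higher in replicate 2, while Mir143 and Mir145a were lower, at folds of 0.925 and 0.857, and all 3 passed the binomial test. The liver miRNA Mir122, which also circulates in plasma, was at 55.8 ± 2.51 CPM. It stood at 0.403 of the red-cell sum in replicate 1 and 0.399 in replicate 2. Since Mir486 is also made in muscle, the muscle list was read beside it. That list summed to 39.3 ± 6.43 CPM, from Mir206 (17.8 ± 6.27), Mir499 (12.4 ± 0.932), Mir208a (5.36 ± 2.49) and Mir208b (3.52 ± 2.02 CPM). Mir1a-1, Mir133a-1, Mir133a-2 and Mir133b had 0 counts and Mir1a-2 had 1 count in replicate 1. Copies of these genes lose reads that match several places. The part of these cell types in the members' levels was not tested.

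**Figure D5:**
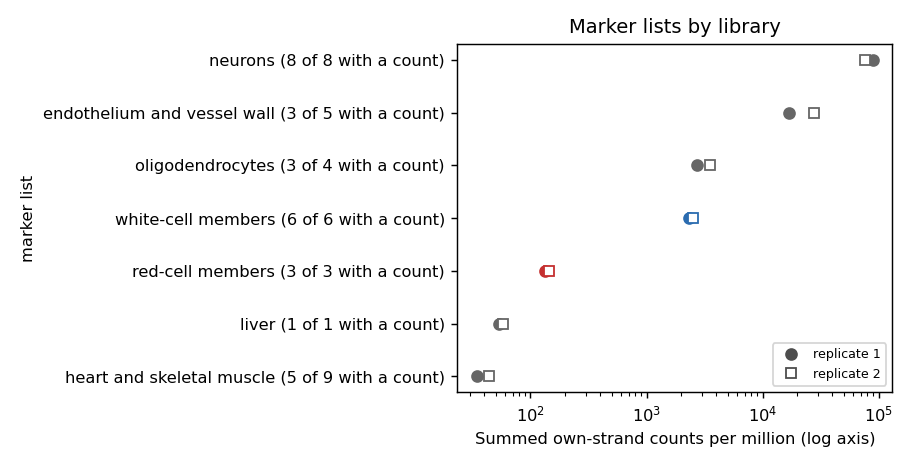
Summed own-strand CPM of each marker list (horizontal log axis) in replicate 1 (filled circles) and replicate 2 (open squares), with the number of listed genes that had a count. The white-cell members (blue) lie just below the oligodendrocyte list, and the red-cell members (red) lie between the white-cell members and the liver miRNA. Sums of lists with numbered gene copies can be too low.

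Further miRNAs known from white cells and their activation, none of them confined to those cells, spanned 1.96 CPM (Mir147) to 14946 CPM (Mir125a). Of 17 listed genes 16 were measured, of which 6 were higher and 5 lower in replicate 2 by the binomial test and 5 did not pass. The shares over all measured genes were 34.2% higher and 22.7% lower. The median level of the 16 genes was 1243 CPM and their median fold 1.01, against 1.05 over all measured genes. Most abundant were Mir125a (14946 ± 2991 CPM), Mir22 (11153 ± 8121 CPM), Mir29a (9251 ± 3814 CPM) and Mir342 (4771 ± 88.4 CPM). Mir22 was 3.12-fold higher in replicate 2, more than any member. Mir511, a macrophage miRNA, was as scarce as Mir146b, at 3.44 ± 1.05 CPM with 10 and 12 counts. Mir147, which is induced in stimulated macrophages, had 4 and 10 counts.

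Of 13 further miRNAs reported from red cells or reticulocytes, 11 symbols were matched and 9 genes were measured. In the binomial test 4 were higher, 3 lower and 2 did not pass, where 34.2% of all measured genes were higher and 22.7% lower. The median fold of the 9 genes was 1.34. The symbols Mir92a-1 and Mir92a-2 were not matched as written. The measured genes Mir92-1 (406 ± 107 CPM, 1.46-fold, passed) and Mir92-2 (16.8 ± 4.84 CPM, 1.51-fold, not passed) thus stand outside these counts. The most abundant were Mir191 (10184 ± 1118 CPM), Mir107 (3515 ± 1214 CPM), Mir15a (1013 ± 606 CPM) and Mir425 (872 ± 39.8 CPM). Each of these was above the 85.4 CPM of Mir451a. The cluster of Mir183, Mir96 and Mir182, known from sensory cells and reported from reticulocytes, was scarce, at 14.2 ± 0.664 CPM for Mir183, 7.85 ± 1.62 CPM for Mir182 and 1 count in all for Mir96.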

How the data were processed

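The authors deposited raw read counts per miRNA gene, made on mm10 with GENCODE M21, per the readme files. The sources used here do not name the aligner or counter. The 3 columns of counts were read, from the values alone, as both strands together, own strand and opposite strand, and the own-strand column was used. The 4 leading entries that name no gene stayed out of totals and tests. Symbols and positions (1-based, mm10) came from GENCODE M21.

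Of all reads 31.6% in replicate 1 and 18.2% in replicate 2 were unmapped. With 1 group, edgeR's quasi-likelihood test has no contrast, so an exact conditional binomial test was used over genes reaching 10 counts in both libraries. It was tested on simulated data that held counting error and no spread between animals. Reads from CAST/EiJ alleles can mismatch the reference, which was not tested.

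Members and lists were chosen with earlier results of these data known. Named genes are all members, genes on the other strand of their loci, the gene nearest in level to each, and the 4 most abundant of each list, with members of the lists at 0. Other genes of the lists (Mir511, Mir147, Mir182, Mir183 and Mir96), and Mir92-1 and Mir92-2, were named after their values were seen. Alternatives changed the count minimum, scaling, strand, test and pseudocount (0.1 for 1 CPM). Software was R 4.3.3 with edgeR 4.0.16 and DESeq2 1.42.0, and Python 3.11.15 with pandas 2.3.3, matplotlib 3.10.9, NumPy 2.4.6 and SciPy 1.17.1.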

Additional observations from a re-analysis of the deposited data

Results flagged for a closer look

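The opposite strand of the Mir486 locus, which no level above uses, held 6 reads in replicate 1 and 4 in replicate 2, over the limit of 3 counts that a count of 0 allows. The same reads are the own-strand counts of Mir3107. The other 8 members had 0 reads on the opposite strand in both libraries.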

How the results depend on the processing

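No paired analysis was possible because both libraries belong to 1 group. Of the 9 members, 4 passed the binomial test and 2 passed 1.5-fold. With edgeR's exact test 0 passed, with 0 at an unadjusted p under 0.05, against 3 of 392 genes in all. At a minimum of 100 counts 0 of the 5 members tested were past 1.5-fold, since Mir144 and Mir146b were no longer tested, against 57 of 242 genes. The binomial test then called 3 members and 194 of 242 genes. It called 3 members and 219 of 392 genes with TMM scaling, and 4 members and 232 of 613 genes at a minimum of 1 count. The summed levels moved by construction with the total used: without the most abundant gene in it the white-cell sum was 2709 and the red-cell sum 157 CPM, and per 1000000 mapped reads they were 1012 and 58.6. Counting without strand gave 28.2 CPM for the red-cell sum and a red-to-white ratio of 0.0110, against 0.0579 with strand. Leaving out Mir486, an alternative added after the data were seen, gave 111 CPM and a ratio of 0.0463, and leaving out Mir144, added likewise, gave a ratio of 0.0472. The white-cell ratio between libraries without Mir150, also added later, was 1.05, with an interval that includes 1, and the red-cell ratio, not called in any setting, turned from 1.08 to 0.909 without Mir144. Leaving out each library in turn gave 2312 to 2496 CPM for the white-cell sum, 134 to 144 CPM for the red-cell sum and a ratio of 0.0577 to 0.0580. Of 42 log2 ratios of members under alternatives 38 kept direction and call. The pseudocount cannot change either. The total without the most abundant gene changes the relative depth of the libraries by only 0.0007 on the log2 scale. Ratios under these alternatives are thus no measure of stability. Mir146 kept its direction and lost the call under TMM and DESeq2 scaling. Mir142, which passed under no setting, turned to -0.013 with TMM and -0.014 with DESeq2 scaling. Of 63 levels of single members under alternatives 46 stayed within 1 SD and 17 moved, each with another total or without strand. Much of the 46 was fixed in advance. Either library alone always lies within 1 SD of the mean of 2, and TMM and DESeq2 scaling hardly change that mean. The 46 are therefore no measure of stability. TMM and DESeq2 scaling move all ratios by 0.063 and 0.064 on the log2 scale. For Mir142, Mir451a and Mir486 no ratio could be had without strand, where their counts are 0. Depth limits Mir146b and Mir223 most.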
